A study of Drosophila melanogaster with 11 samples.

Results

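The genes described here encode enzymes that break down the aromatic amino acids phenylalanine, tyrosine and tryptophan. A list of 9 genes was selected on log2 values of these same arrays over all 4 exposure groups, and its probe sets were found by gene symbol in the platform annotation. The array annotation named 11982 genes by a probe set of their own. Of the 9 genes listed, 7 matched 1 probe set each among 18952 on the array, and 6 of these probe sets (Tat, Hpd, hgo, GstZ1, GstZ2 and Faa) passed the filter on low values, reaching log2 4 on at least 2 arrays, among 9104 that did. The cn probe set lay at the floor of the table on all 11 arrays (log2 2.11) and gave no measurement. Hn and v were not analysed here. Because the list was chosen on these values, differences of its genes between groups are given as a description with their standard errors (SE), and no p-value of a listed gene is given.

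Animals take apart tyrosine in a chain of 5 steps. Tat removes the amino group, Hpd converts the resulting keto acid to homogentisate, hgo opens its ring, a zeta class glutathione S-transferase (GstZ1 or GstZ2) isomerises the product, and Faa cleaves it to fumarate and acetoacetate. Hn feeds the chain by hydroxylating phenylalanine. The genes v and cn take steps of the kynurenine route, which breaks down tryptophan and supplies the brown eye pigments of flies. In insects the fat body, which combines functions of liver and adipose tissue and is also present in the head, is a main site of amino acid breakdown.

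All animals were w1118 females taken within a day of eclosion, and each array held the pooled heads of 20 flies from a vial. In the joint exposure (n = 3 arrays) flies ate nicotine at 0.1 mg/ml throughout 16 days and, over the last 6 of these, 5 mM paraquat as well. In the paraquat group (n = 2) plain food for 10 days was followed by 5 mM paraquat for 6 days, and a further, degraded pool was left out by the submitters. The nicotine group (n = 3) had nicotine alone and the control group (n = 3) plain food alone for the same 16 days. Paraquat is a redox-cycling herbicide and nicotine an agonist of acetylcholine receptors, and the series examined them as a model of Parkinson's disease. The labels call the pools biological replicates and do not say how the vials were set up, so the errors measure the spread between pools. Whole heads mix many tissues, so a level is an average over them.

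Markers of the labelled tissue were present, though not on every probe set. The photoreceptor genes Arr2 and trp lay between log2 15.57 and 15.88 and between 13.54 and 14.72 on the 11 arrays. The neuronal gene elav lay between 11.14 and 11.93. Of 9 neuronal probe sets, however, 4 lay below log2 4 on all arrays, and no probe set of the neuronal gene brp exceeded log2 5.79. Some arrays stood apart. Joint exposure replicate 1 had the lowest mean correlation with the other arrays (0.977, against 0.985 to 0.991 for the other 10). The summed level of 7 digestive tract probe sets was log2 15.66 and 14.79 in joint exposure replicates 1 and 2, against 11.58 to 12.96 on the other arrays. The summed level of 7 ovary probe sets was log2 8.25 in joint exposure replicate 1 and 9.42 in nicotine replicate 1, against 5.86 to 6.12 on the other 9 arrays. Control replicate 3 had a difference of 4.55 log2 between the 3' and 5' probe sets of the control transcripts, which ran from 6.95 to 8.79 on the other arrays.

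Of the 6 measured genes, 5 had less transcript in heads of paraquat-fed flies, with and without nicotine, and GstZ1 did not share that pattern. Averaged over both nicotine levels, paraquat minus no paraquat was -1.48 ± 0.19 log2 for Hpd, -1.20 ± 0.31 for Tat, -1.27 ± 0.35 for hgo, -1.23 ± 0.20 for Faa and -1.90 ± 0.45 for GstZ2. These are levels 2.80, 2.30, 2.40, 2.34 and 3.72 times lower. GstZ1 was at 0.40 ± 0.33 log2. The median over the 6 genes was -1.25, beside -0.01 over the 9104 tested probe sets, of which 51.0% were lower.

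**Figure D1:**
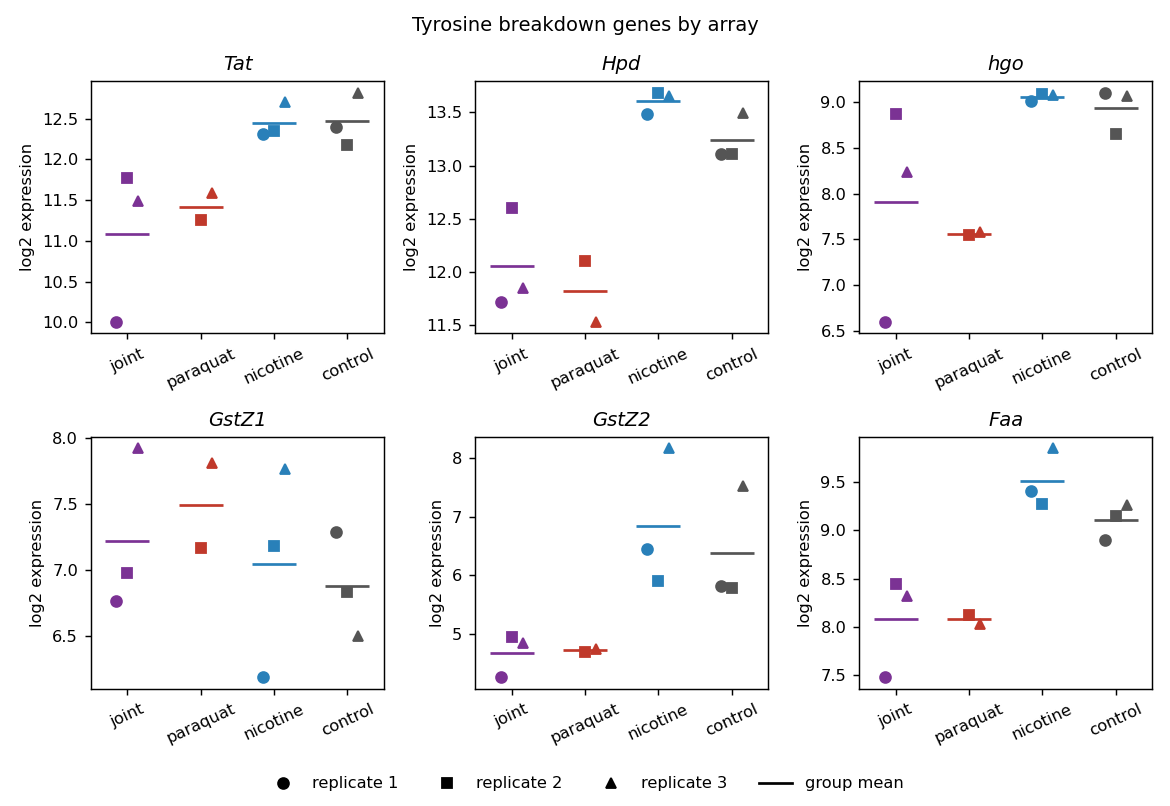
Log2 expression of the 6 measured tyrosine breakdown genes on each array (y axis, a separate scale for each gene) in the joint exposure, paraquat, nicotine and control groups (x axis). Symbols mark the replicate number and lines the group means. For Tat, Hpd, GstZ2 and Faa all joint exposure and paraquat arrays lie below all nicotine and control arrays, whereas the groups overlap for GstZ1.

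Tat, tyrosine aminotransferase, takes the entry step of the chain (CG1461, probe set 1641454_at). Its log2 values were 10.01, 11.77 and 11.49 in the joint exposure and 11.25 and 11.58 with paraquat, against 12.31, 12.34 and 12.70 with nicotine and 12.40, 12.18 and 12.82 in control. All 5 paraquat-fed arrays lay below all 6 others, and joint exposure replicate 1 was the lowest by more than 1 log2. Group means were 11.09 ± 0.95 (SD, n = 3) in the joint exposure, 11.42 ± 0.23 (n = 2) with paraquat, 12.45 ± 0.22 (n = 3) with nicotine and 12.46 ± 0.33 (n = 3) in control. Without joint exposure replicate 1 the averaged paraquat difference of Tat was -0.93 log2.

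Hpd, 4-hydroxyphenylpyruvate dioxygenase, makes homogentisate (CG11796, probe set 1637229_a_at). It was measured at log2 11.72, 12.60 and 11.85 in the joint exposure and 12.11 and 11.53 with paraquat, against 13.49, 13.69 and 13.65 with nicotine and 13.11, 13.11 and 13.49 in control. The paraquat-fed arrays all lay below the others, and the lowest control array exceeded the highest paraquat-fed array. Group means were 12.06 ± 0.48 (SD, n = 3) in the joint exposure, 11.82 ± 0.41 (n = 2) with paraquat, 13.61 ± 0.10 (n = 3) with nicotine and 13.24 ± 0.22 (n = 3) in control. In descending order the groups ran nicotine, control, joint exposure and paraquat. Nicotine minus control was 0.37 ± 0.26 log2, with a 95% interval from -0.21 to 0.95, joint exposure minus paraquat was 0.24 ± 0.29, and joint exposure minus control was -1.18 ± 0.26.

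The gene hgo encodes homogentisate 1,2-dioxygenase, which opens the aromatic ring (CG4779, probe set 1633492_at). Values were log2 6.60, 8.87 and 8.24 in the joint exposure and 7.54 and 7.58 with paraquat, against 9.01, 9.09 and 9.07 with nicotine and 9.10, 8.65 and 9.07 in control. Here the groups overlapped, since joint exposure replicate 2 lay above control replicate 2. Group means were 7.90 ± 1.17 (SD, n = 3) in the joint exposure, 7.56 ± 0.02 (n = 2) with paraquat, 9.06 ± 0.04 (n = 3) with nicotine and 8.94 ± 0.25 (n = 3) in control. The joint exposure arrays thus spread over more than 2 log2, the other groups over less than 1. The difference of hgo between paraquat and control was -1.38 ± 0.52 log2, and joint exposure minus nicotine was -1.15 ± 0.47, which became -0.50 without joint exposure replicate 1 and -1.64 without joint exposure replicate 2.

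GstZ2 and GstZ1 are paralogues for the isomerase step and neighbours on chromosome arm 3R, with 0 other genes starting between them in the RefSeq table of Release 6. Their probe sets gave different values, and each is the probe set of 1 gene in the annotation. GstZ2 (CG9363, probe set 1637752_a_at) had log2 values of 4.27, 4.95 and 4.85 in the joint exposure and 4.70 and 4.76 with paraquat, against 6.45, 5.91 and 8.16 with nicotine and 5.81, 5.78 and 7.52 in control. All paraquat-fed arrays lay below all others and close to the filter at log2 4, and the nicotine and control arrays numbered 3 were the highest of their groups. Group means were 4.69 ± 0.37 (SD, n = 3) in the joint exposure, 4.73 ± 0.04 (n = 2) with paraquat, 6.84 ± 1.18 (n = 3) with nicotine and 6.37 ± 0.99 (n = 3) in control.

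GstZ1 (CG9362, probe set 1624580_at) had log2 values of 6.76, 6.98 and 7.92 in the joint exposure and 7.17 and 7.81 with paraquat, against 6.19, 7.18 and 7.77 with nicotine and 7.29, 6.84 and 6.50 in control. Group means were 7.22 ± 0.62 (SD, n = 3) in the joint exposure, 7.49 ± 0.46 (n = 2) with paraquat, 7.04 ± 0.80 (n = 3) with nicotine and 6.88 ± 0.40 (n = 3) in control. The paraquat-fed arrays overlapped the others, and the 95% interval of its averaged paraquat difference ran from -0.35 to 1.14 log2. For GstZ2 the interval ran from -2.92 to -0.88, and the difference between the paralogues was not tested. Across the 11 arrays the values of the 2 genes had a Pearson correlation of -0.15.

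Faa, fumarylacetoacetase, takes the last step (CG14993, probe set 1638810_at). It was at log2 7.47, 8.45 and 8.32 in the joint exposure and 8.12 and 8.03 with paraquat, against 9.40, 9.28 and 9.85 with nicotine and 8.90, 9.15 and 9.27 in control. Again all paraquat-fed arrays lay below all others. Group means were 8.08 ± 0.53 (SD, n = 3) in the joint exposure, 8.08 ± 0.07 (n = 2) with paraquat, 9.51 ± 0.30 (n = 3) with nicotine and 9.10 ± 0.19 (n = 3) in control. For Faa the 3 nicotine arrays also lay above the 3 control arrays, by 0.41 ± 0.27 log2 on average. Of all tested probe sets, 92.9% had a lower nicotine minus control difference. The share of them with such a separation was not counted, so nothing was read from it.

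In the limma fit across all tested probe sets, with Benjamini-Hochberg adjustment and a threshold of 0.05, Hpd and Faa were called lower with paraquat averaged over nicotine. These are 2 of 6 measured genes, beside 3.69% of all tested probe sets called in either direction and 0.758% called lower. In 4 of the 6 (Tat, Hpd, GstZ2 and Faa) all 5 paraquat-fed arrays lay below all 6 others, which held for 1.99% of tested probe sets. The list was chosen on the values of all 4 groups, which this contrast uses, so nothing further was read from these shares. Faa lost its call without paraquat replicate 3. Tat and hgo joined the calls without joint exposure replicate 1, without joint exposure replicate 2 and without both (4 called each time). They also joined with joint exposure replicate 1 and control replicate 3 left out together (4 called). Over all tested probe sets, the single omissions gave 378 calls (4.19%) and 589 calls (6.50%). Leaving out both joint exposure arrays gave 585 of 8992, and the last setting 308 of 8994. These 2 double omissions were chosen after the data were seen. GstZ2 was called without nicotine replicate 2, which gave 3 calls. The number of probe sets called over the whole table, 336, was 53 without paraquat replicate 3, 168 without nicotine replicate 1, and 191 without control replicate 2 or paraquat replicate 2. Leaving out nicotine replicate 3 or 2 gave 214 or 222, and leaving out joint exposure replicate 2 gave 589.

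**Figure D2:**
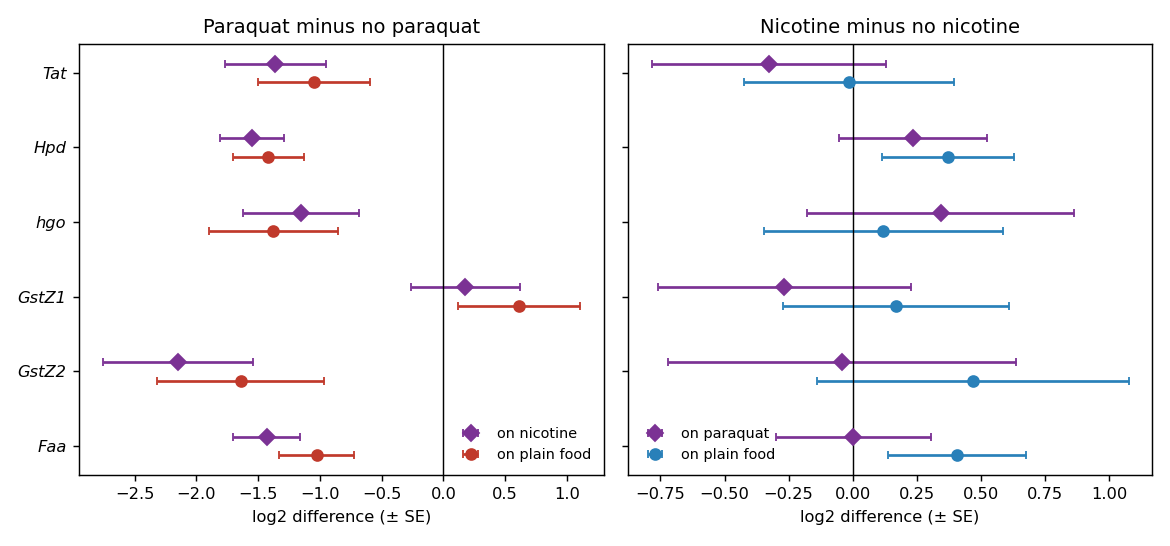
Log2 differences with SE (x axis) of the 6 measured genes (y axis) for paraquat minus no paraquat on nicotine and on plain food (left), and for nicotine minus no nicotine on paraquat and on plain food (right), from the fit to 11 arrays. The paraquat differences of Tat, Hpd, hgo, GstZ2 and Faa lie between -2.15 and -1.03, and the nicotine differences of all 6 genes between -0.33 and 0.47.

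With nicotine no listed gene was called, and the intervals were wide. Averaged over both paraquat levels, nicotine minus no nicotine was 0.30 ± 0.19 log2 for Hpd, 0.23 ± 0.35 for hgo, 0.20 ± 0.20 for Faa, 0.21 ± 0.45 for GstZ2, -0.17 ± 0.31 for Tat and -0.05 ± 0.33 for GstZ1. On plain food nicotine minus control was 0.37 ± 0.26 for Hpd, 0.41 ± 0.27 for Faa, -0.02 ± 0.41 for Tat, 0.12 ± 0.47 for hgo, 0.17 ± 0.44 for GstZ1 and 0.47 ± 0.61 for GstZ2. On paraquat, joint exposure minus paraquat was -0.33 ± 0.46 for Tat, 0.34 ± 0.52 for hgo, -0.27 ± 0.49 for GstZ1 and -0.04 ± 0.68 for GstZ2. The 95% intervals of all 6 genes included 0 in both comparisons, although Hpd and Faa exceeded their SE on plain food. The nicotine and control arrays of Faa did not overlap, a separation whose share over all tested probe sets was not counted. Leaving out joint exposure replicate 1 put joint exposure minus paraquat at 0.21 for Tat and 0.99 for hgo, and leaving out joint exposure replicate 2 put it at -0.67 for Tat and -0.14 for hgo. For the averaged nicotine difference the 95% interval was narrowest for Hpd, from -0.13 to 0.74, and widest for GstZ2, from -0.81 to 1.23. Of the 6 genes 0 were called by limma. In this contrast 0% of tested probe sets were called, with 336 at an unadjusted p below 0.05. Leaving out joint exposure replicate 3 gave 22 calls, leaving out nicotine replicate 2 gave 2 and leaving out joint exposure replicate 1 gave 1, with 0 of the listed genes among them.

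The question of the joint exposure was whether nicotine altered what paraquat did. The paraquat difference on nicotine was -1.55 ± 0.26 log2 for Hpd, -1.36 ± 0.41 for Tat, -1.43 ± 0.27 for Faa and -2.15 ± 0.61 for GstZ2. On plain food it was -1.42 ± 0.29 for Hpd, -1.05 ± 0.46 for Tat, -1.03 ± 0.30 for Faa and -1.64 ± 0.68 for GstZ2. The difference between these differences, the interaction, was -0.14 ± 0.39 for Hpd and -0.40 ± 0.40 for Faa. The 95% interval was from -1.31 to 0.50 for Faa and from -2.55 to 1.53 for GstZ2. It was -0.31 ± 0.61 for Tat, 0.22 ± 0.70 for hgo, -0.44 ± 0.66 for GstZ1 and -0.51 ± 0.91 for GstZ2. The alternatives moved these values across 0 for every gene but Faa. Tat was at 0.23 and hgo at 0.88 without joint exposure replicate 1, and Tat at -0.65 and hgo at -0.26 without joint exposure replicate 2. GstZ2 ran from -1.08 without control replicate 3 to 0.15 without nicotine replicate 3, GstZ1 from -0.86 without nicotine replicate 1 to 0.46 with array weights, and Hpd from -0.42 without paraquat replicate 3 to 0.15 without paraquat replicate 2. For the interaction limma called 0 of the 6 genes and 0% of tested probe sets. Of the 9104 tested probe sets 112 had an unadjusted p below 0.05. The same 3 omissions gave 21, 2 and 1 interaction calls, again with 0 listed genes.

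Inside the groups some of the measured genes varied together and others did not. After each group's mean was taken off, the values of Tat and hgo correlated at 0.94 (Pearson's r over 11 arrays), Tat and Faa at 0.88 and hgo and Faa at 0.78. Joint exposure replicate 1 lay below its group mean by 1.08 log2 for Tat, 1.30 for hgo, 0.60 for Faa and 0.34 for Hpd, and joint exposure replicate 2 lay above it by 0.68, 0.97, 0.37 and 0.54. Without joint exposure replicate 1 the same correlations were 0.60, 0.58 and 0.06 over 10 arrays. Faa and GstZ2 had 0.68 with that array and 0.88 without it. Over all 15 pairs of genes the correlation ran from -0.23 (Hpd and GstZ1) to 0.94, and hgo and GstZ2 had 0.29. The values of an array come from the same pool of heads and the same normalization, so these correlations describe the arrays only.

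Head fat body markers were lower on most of the same arrays. The summed level of 8 marker probe sets, of which 3 lay below log2 4 on all arrays (those of Fbp1, Fbp2 and Fst), was log2 17.01, 17.81 and 17.21 in the joint exposure and 17.39 and 17.37 with paraquat. It ran from 17.77 to 17.89 with nicotine and from 17.80 to 17.95 in control. The storage protein gene Lsp2 differed by -1.36 ± 0.35 log2 with paraquat (limma, adjusted p = 0.0719), the yolk protein genes Yp3 by -0.88 ± 0.29 (adjusted p = 0.140), Yp2 by -0.56 ± 0.21 (adjusted p = 0.197) and Yp1 by -0.08 ± 0.10 (adjusted p = 0.752), and the lipoprotein gene apolpp by -0.27 ± 0.10 (adjusted p = 0.206). In bulk heads fewer fat body cells and less RNA per cell cannot be told apart.

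Joint exposure replicate 2 had the highest fat body marker sum of the 5 paraquat-fed arrays, and also the highest Hpd, Tat, hgo, Faa and GstZ2. It had Lsp2 at log2 15.13, beside 14.89 to 15.39 with nicotine, and Yp3 at 15.53, beside 15.49 to 15.61 with nicotine. On that array Hpd (12.60), Tat (11.77), Faa (8.45) and GstZ2 (4.95) lay below all nicotine and control arrays, while hgo (8.87) lay within their range. On the other paraquat-fed arrays Hpd, Tat, hgo, Faa, GstZ2 and the marker sum all lay below the nicotine and control arrays. GstZ1 did not, with 7.92 in joint exposure replicate 3. Nor did every marker, since Yp1 was at 15.88 in joint exposure replicate 1, beside 15.82 to 15.97 in control. The part of the fat body content in the differences was not tested. The summed level of 9 neuronal marker probe sets, of which 4 lay below log2 4 on all arrays, was lower on most paraquat-fed arrays. It was 12.32 to 13.16 in the joint exposure and 12.90 and 13.21 with paraquat. With nicotine it ran from 13.15 to 13.65, which overlaps these values, and in control from 13.39 to 14.27. Of its 5 tested probe sets, that of futsch had the smallest adjusted p with paraquat (-0.85 ± 0.31 log2, limma, adjusted p = 0.189). The part of neuronal content was not tested. The digestive tract sum was 12.18 and 12.31 with paraquat alone, against 11.99 to 12.96 in control, and its part in the joint exposure values was not tested.

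**Figure D3:**
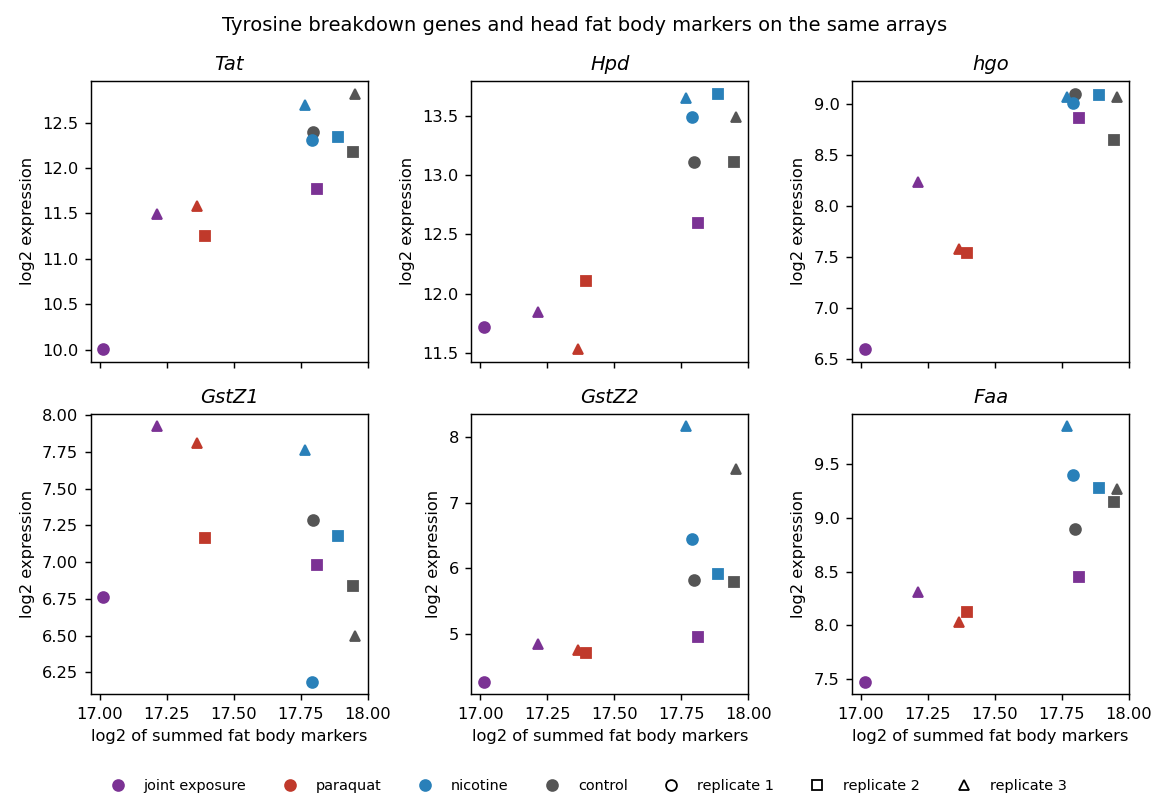
Log2 expression of the 6 measured genes (y axis) against the log2 of the summed level of the 8 head fat body marker probe sets (x axis), with a point for each of the 11 arrays, coloured by group and shaped by replicate number. Joint exposure replicate 2 has a marker sum of 17.81, beside 17.77 to 17.95 in the nicotine and control arrays, and lies below them for Hpd, Tat, GstZ2 and Faa.

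For each measured gene, the probe sets with the most similar profiles over the 11 arrays were sought. Listed genes and probe sets naming several genes were left out of this search, so it could not return another gene of the chain. For Hpd they were sug, a sugar-responsive transcription factor (Pearson's r = 0.96), and the cytochrome P450 gene Cyp313a1 (0.96). For Faa they were nompA (0.96), which encodes a matrix protein of mechanosensory organs, and the odorant-binding gene Obp57b (0.96). Tat was most like Idgf2, an imaginal disc growth factor (0.97), and PGRP-SB1, a peptidoglycan recognition protein (0.97). PGRP-SB1 was also most like hgo (0.95), with the mitochondrial pyruvate carrier gene Mpc1 next (0.94). For GstZ2 they were CG6435 (0.96) and CG13950 (0.95), and for GstZ1 they were CG18259 (0.92) and Vps51 (0.91).

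Genes of adjoining pathways were examined for comparison, from lists made by function with 50 genes on the array, of which 45 had a tested probe set. With paraquat averaged over nicotine, 2 of the 45 were called higher and 0 were called lower. Called or not, 24 had a difference below 0 and 21 above 0, with a median of -0.01 log2. Over all tested probe sets 3.69% were called in either direction, and 267 of the 9104 were called higher. In 0 of the 45 did all paraquat-fed arrays lie below all others, which held for 1.99% of all tested probe sets. In 2 (Acat2 and Gs1) they all lay above, and the share of all tested probe sets that did so is not given here. Nothing further was read from these counts. With nicotine and for the interaction limma called 0 of the 45, and 0 had an unadjusted p below 0.05.

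Both calls were in the list of other amino acid breakdown, the longest list, with 19 of the 45 tested genes. The arginase gene arg, whose product splits arginine into ornithine and urea, had log2 values of 8.75, 9.32 and 9.99 in the joint exposure and 9.82 and 10.07 with paraquat, against 7.58, 8.24 and 6.91 with nicotine and 7.49, 7.67 and 8.93 in control. Only control replicate 3 among the arrays without paraquat reached the paraquat-fed arrays. It rose by 1.84 ± 0.35 log2 (3.59-fold, limma, adjusted p = 0.0225). The call of arg was lost without control replicate 2 (adjusted p = 0.0621), paraquat replicate 2 (0.0666), paraquat replicate 3 (0.134), nicotine replicate 1 (0.0622) or nicotine replicate 3 (0.0519).

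The glutamine synthetase gene Gs1, which binds ammonia to glutamate in mitochondria, was at log2 13.09, 13.30 and 13.28 in the joint exposure and 13.27 and 13.38 with paraquat, against 12.68, 12.88 and 12.65 with nicotine and 12.61, 12.79 and 12.58 in control. It rose by 0.57 ± 0.11 log2 (1.49-fold, limma, adjusted p = 0.0221). The arrays with and without paraquat did not overlap, and the share of tested probe sets separated in this way is not given here. The call of Gs1 was lost without control replicate 1 (adjusted p = 0.0522), paraquat replicate 2 (0.0666), paraquat replicate 3 (0.148) or nicotine replicate 1 (0.0677). Its paralogue Gs2 was at -0.07 ± 0.29 (adjusted p = 0.947). The median over the 19 tested genes of this list was 0.10. Oat, ornithine aminotransferase, singled out after its values were seen, was at -1.10 ± 0.47 (adjusted p = 0.265), with an unadjusted p of 0.0435.

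Among 7 cofactor and pteridine genes 0 were called and the median was -0.28 log2. Pcd and Dhpr, which regenerate the tetrahydrobiopterin that Hn needs, were at -0.29 ± 0.21 (limma, adjusted p = 0.533) and -0.04 ± 0.17 (adjusted p = 0.950). The xanthine dehydrogenase gene ry had the smallest p of the list, at 0.68 ± 0.20 (adjusted p = 0.105). In the kynurenine and ommochrome list, KFase, the kynurenine formamidase whose step lies between those of v and cn, was at -0.46 ± 0.31 (adjusted p = 0.498). Of the 6 tested genes of that list 0 were called, and their median was 0.00271.

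Other users of tyrosine and tryptophan were called in neither contrast. The tyrosine hydroxylase gene ple was at -0.30 ± 0.16 log2 with paraquat (limma, adjusted p = 0.363) and at 0.33 ± 0.16 with nicotine (adjusted p = 0.833, the smallest p of the 45 in that contrast). Next with nicotine came the dopamine transporter gene DAT at 0.48 ± 0.31, arg at -0.52 ± 0.35 and the pteridine enzyme gene se at -0.63 ± 0.43, each with an adjusted p of 0.833. Of 8 tested genes 0 were called, with a median of -0.09 for paraquat. Downstream of Faa, 5 genes for the fate of fumarate and acetoacetate had 0 calls. There the acetoacetyl-CoA thiolase gene Acat2 was at 0.58 ± 0.17 with paraquat (adjusted p = 0.106) and was called only with joint exposure replicate 2 left out, among the single omissions. SCOT, which activates acetoacetate for oxidation, was at -0.02 ± 0.19 (adjusted p = 0.974).

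**Figure D4:**
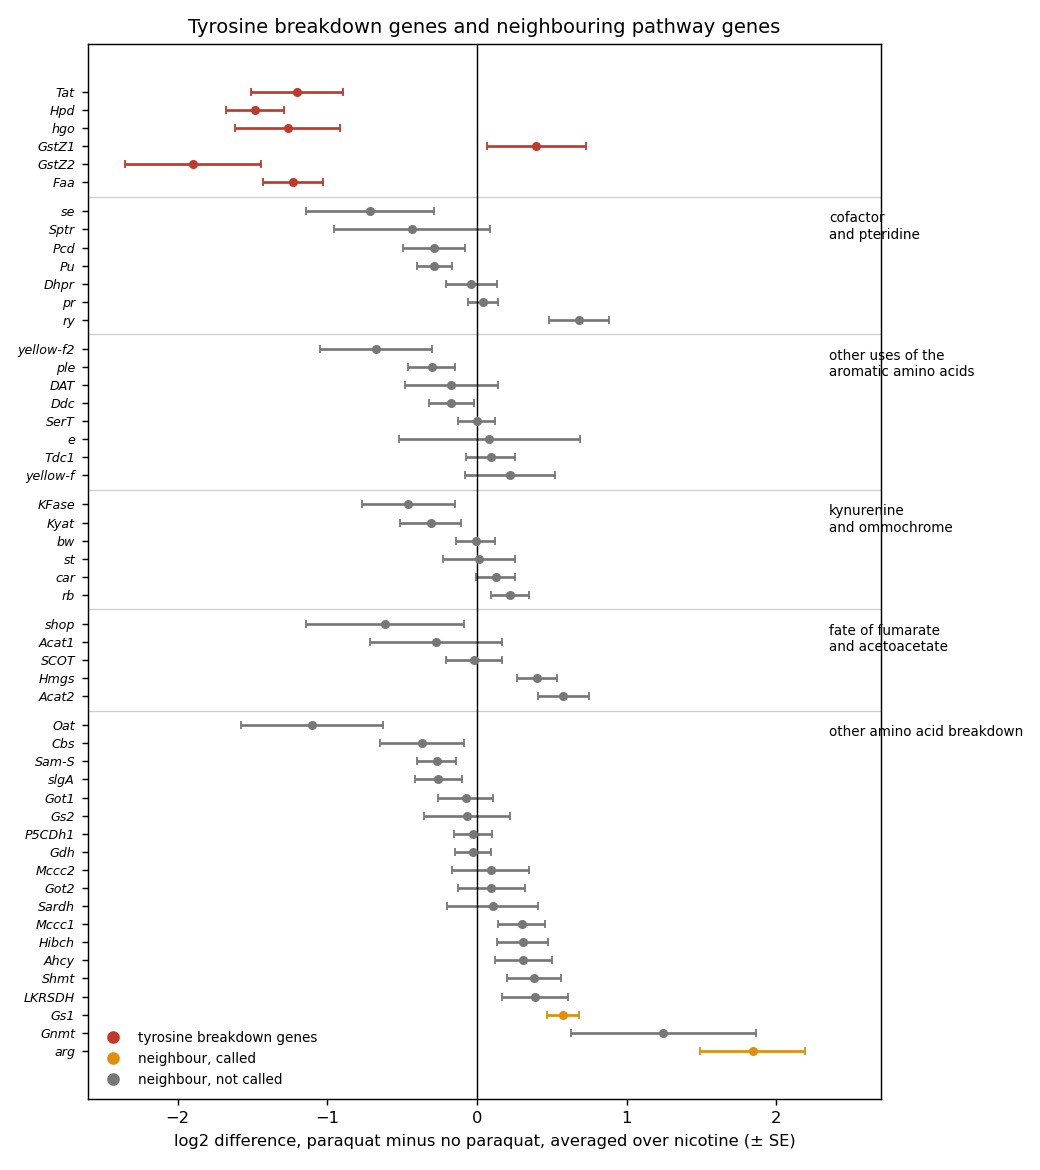
Log2 difference of paraquat minus no paraquat, averaged over nicotine, with SE (x axis) for the 6 measured tyrosine breakdown genes and the 45 tested genes of adjoining pathways in their lists (y axis). Tat, Hpd, hgo, GstZ2 and Faa lie between -1.90 and -1.20, and arg (1.84) and Gs1 (0.57) are the called neighbours.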

How the data were processed

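Female fly heads were measured on 11 Affymetrix arrays. Per the labels' protocols, 50 ng of total RNA was amplified with a NuGEN kit that primes at the 3' end. The deposited log2 values per probe set were made with GCRMA, per the submitters' processing notes, which adjusts background and normalizes between arrays. Software version and genome build: not given in the sources used here, hence no coordinates. One degraded paraquat replicate was left out by the authors, per the series' design text. The table ran from log2 2.11 to 16.2, with 39.9% of values within 0.01 of its minimum.

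Probe sets were kept if at least 2 arrays reached log2 4, and 183 control probe sets were dropped, which left 9104. Symbols come from the platform annotation, updated through gene identifiers with RefSeq. limma 3.58.1 (R 4.3.3) fitted 1 mean per group to all 11 arrays (7 residual and 2.48 prior degrees of freedom), with two-sided tests adjusted by Benjamini-Hochberg over the tested probe sets in 3 contrasts: paraquat averaged, nicotine averaged and the interaction. A further 5 contrasts give differences only. The code was tested on simulated data. The number of arrays limits the precision. Errors after ± are SE unless SD is written. The genes named by rule are the list members and the neighbours that were called or had the 4 smallest p for paraquat or nicotine. Pcd, Dhpr, KFase, SCOT, Gs2 and Oat fall outside that rule and were chosen after their values were seen, the first 4 for their place in the route. The 2 best correlated probe sets from outside the list are named too for each measured member. The members and lists were chosen with earlier results of these data known. Alternatives were the low-value filter, the prior, the arrays fitted, centring, array weights, a replicate block, the 3' minus 5' control difference as a covariate, and leaving out arrays.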

Additional observations from a re-analysis of the deposited data

How the results depend on the processing

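The averaged paraquat differences of Hpd, Tat, hgo, Faa and GstZ2 stayed below 0, and that of GstZ1 above 0, under all 20 alternatives, with Hpd between -1.63 and -1.34 log2 and GstZ2 between -2.13 and -1.38. Calls depended more on the settings, and the cause was not tested except where said. With no filter on low values, which tests 18769 probe sets, paraquat had 137 calls, 1 of the listed genes (Hpd) and 1 neighbour (Gs1), and nicotine and the interaction had 3 probe sets each. With array weights paraquat had 1627 calls, 5 listed genes and 7 neighbours. Centring the arrays on their medians gave 343 calls among 9104 probe sets, with 4 listed genes. It shifted the paraquat contrast of all probe sets by -0.07 log2, and that on plain food by -0.11. With the replicate number as a block 4 listed genes were called (Hpd, Faa, Tat and GstZ2) and the total was 359. The deviations of same-numbered arrays correlated at -0.07 to 0.50, over 0.1 in 9 of 15 pairs of arrays but not in all, and the labels tie no number to a shared batch, so the numbers were not taken as pairing them. Leaving out single arrays gave 53 to 589 paraquat calls, 1 to 4 listed genes and 0 to 3 neighbours, with 0 to 22 nicotine and 0 to 21 interaction calls. A further 2 settings were chosen after seeing the data. Leaving out joint exposure replicate 1 and control replicate 3 gave 308 calls and 4 listed genes. Without joint exposure replicates 1 and 2 there were 585 calls and 4 listed genes. The covariate for the 3' minus 5' difference, the filter at log2 6 and the variance trend kept all counts within 1.5 times. Fitting only the groups compared applied to single contrasts alone. Only 2 arrays measure the paraquat group.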
